A study of Mus musculus with 28 samples.

Results

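The mRNAs of 40 mouse genes of ribosome biogenesis and the nucleolus were followed through drug-induced senescence of B-cell lymphoma cells. The 40 genes were a fixed list of names, chosen with earlier results of these data known. Their shares are therefore set beside those of all genes as a description. All 40 were measured among the 18193 genes that the arrays named. Each gene was read by its brightest probe set that carried a single gene symbol. The list held 8 genes of RNA polymerase I and its factors, 8 of the small nucleolar ribonucleoproteins (snoRNPs), 9 of small-subunit assembly, 10 of large-subunit assembly and 5 other nucleolar proteins.

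All cells were primary lymphoma cells from lymph nodes of C57BL/6 mice that carried the Emu-myc transgene, which drives Myc from an immunoglobulin heavy-chain enhancer in the B lineage. All were also transduced with a Bcl2 retrovirus and selected with puromycin, so the untreated cultures carried both oncogenes too, and all were grown on irradiated NIH 3T3 mouse fibroblasts as feeder cells. Each of 14 lymphomas gave 1 untreated culture and 1 culture exposed in vitro for 5 days to Adriamycin (ADR, an anthracycline that damages DNA) at 0.05 µg/ml, 28 Affymetrix arrays in all. The labels mark the ADR cultures as senescent. Lymphomas 5043, 9583 and 9584 were new to the series and the other 11 had been deposited before. Values are log2 probe-set signals, so a difference of 1 is a doubling. A gene was called when its adjusted p in the limma fit over all 18193 genes, with each lymphoma as its own pair, was below 0.05. The labels name 1 culture per lymphoma and condition, so every p-value measures the spread between lymphomas.

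Ribosome production starts in the nucleolus, where RNA polymerase I copies the ribosomal DNA into a long precursor RNA. The snoRNPs then guide chemical modification of that RNA, and large sets of assembly factors cut it and build the small and large subunits around it. Myc is known to raise the transcription of many of these genes, in B cells as in other tissues, by binding DNA at the E-box. The arrays measured the mRNAs of these factors and not ribosomal RNA or ribosomes.

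The E-box letters are shown first, because the changes below are set against the change in Myc. Promoter windows from 250 bases before to 50 bases after the RefSeq start (assembly GRCm38.p6) were given for 35 of the 40 genes. The motif CACGTG, which reads the same on both strands and was searched alone, occurred in 6 of those 35 windows (17.1%), against 8.09% of 27025 windows in the table and 10.2% of the 14452 windows of genes measured here. The stretches that hold it are printed 5′ to 3′ on the gene's own strand, with the motif in capitals. They were Nop2 at chr6:125131783-125131882 on the plus strand, Utp20 at chr10:88826765-88826794 on the minus strand, Pes1 at chr11:3963965-3963994, Mybbp1a at chr11:72441347-72441376, Rrn3 at chr16:13780469-13780698 and Wdr43 at chr17:71616220-71616249, the last 4 on the plus strand.
Nop2: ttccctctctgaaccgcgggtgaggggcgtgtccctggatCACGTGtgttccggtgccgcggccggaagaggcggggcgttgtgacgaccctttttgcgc
Utp20: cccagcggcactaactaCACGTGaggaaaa
Pes1: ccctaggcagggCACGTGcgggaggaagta
Mybbp1a: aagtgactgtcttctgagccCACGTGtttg
Rrn3: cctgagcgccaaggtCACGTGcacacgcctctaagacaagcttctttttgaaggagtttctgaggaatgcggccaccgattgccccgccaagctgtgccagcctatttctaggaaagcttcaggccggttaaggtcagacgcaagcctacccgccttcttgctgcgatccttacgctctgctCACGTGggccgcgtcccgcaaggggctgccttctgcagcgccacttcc
Wdr43: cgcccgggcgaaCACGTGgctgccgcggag
The motif began 60 bases before the start in Nop2, and 215 and 48 bases before it in Rrn3. In Pes1, Wdr43, Utp20 and Mybbp1a it lay after the start, at bases 3, 18, 38 and 41. A match is a string of letters and not a measured site, and no binding data were used.

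The 2 genes against which the members were set moved as follows. Myc ranged from 10.4 to 12.2 untreated (median 11.4) and from 8.99 to 11.9 under ADR (median 10.6), overlapping groups. Myc fell by 0.71 ± 0.18 (SE, n = 14, adjusted p = 0.0073) and was lower in 12 of 14 lymphomas. The values did not separate the transgene's mRNA from that of the endogenous gene. Col1a2, a fibrillar collagen chain made by fibroblasts, ranged from 4.86 to 7.49 untreated (median 5.54) and from 5.93 to 11.7 under ADR (median 8.996). It rose by 2.95 ± 0.47 (adjusted p = 2.2e-04) and was higher in 14 of 14 lymphomas. The 2 changes ran in opposite directions across the lymphomas, with Pearson r = -0.83 (permutation p = 1.9e-04) and Spearman rho = -0.83 (p = 3.8e-04). The r was -0.77 without lymphomas 5560 and 2949, the farthest from the median Myc change, and -0.86 within the 11 earlier lymphomas.

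Markers of other cells moved with the treatment. Of 18 fibroblast genes 17 rose, and the mean level of that list ran from 4.62 to 5.62 untreated and from 5.12 to 9.29 under ADR. Of 12 macrophage genes 8 rose (list mean 5.06 to 8.45 untreated, 6.08 to 9.53 under ADR), while 6 T-cell genes had changes of -0.09 to 0.09, and their list mean lay at 4.54 to 5.22 untreated and 4.43 to 4.88 under ADR, below the 5.84 that was the median level of all genes. Of 9 B-cell genes 5 fell, and their list mean was lower in 11 of 14 lymphomas (8.66 to 9.95 untreated, 7.34 to 10.1 under ADR). That is above 5.84 on every array, although Pax5, a B-lineage transcription factor, had a mean untreated level of 5.59. All 14 measured proliferation genes fell, by a median of 1.38. The part of these cells and of proliferation in the member changes was not tested beyond the fits on Col1a2 given below. Fewer lymphoma cells in a culture and less RNA per lymphoma cell cannot be told apart in bulk RNA.

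Under ADR 12 of the 40 ribosome biogenesis genes fell and Rrn3 rose. Over all genes 13.4% were called lower and 15.3% higher (2435 and 2790 genes, or 4207 and 2007 after each array was centred on its median), and among the 40 the shares were 30% and 2.5%. The median change of the 40 was -0.25, against -0.0011 for all genes, and 32 of the 40 had a negative mean change. At an unadjusted p below 0.05 in limma, 18 were lower and 1 higher. All genes were not counted at that unadjusted threshold, here or in the fits below. None of the 40 was lower in all 14 lymphomas, against 2.59% of all genes, and none was higher in all 14, against 2.87%. The untreated and ADR ranges of level overlapped for each of the 40, and the share of all genes with overlapping ranges was not counted. Among the genes with a mean level of 6 or above, which all 40 members passed, 24.6% were called lower, and 14 of the 40 members (35%) in that fit. Leaving out 1 lymphoma moved the count of falling members between 7 (without 3769, 17.5% against 11.4% of all genes) and 20 (without 2949, 50% against 14.1%). Without lymphomas 403 and 5560, which had the highest Col1a2 changes, 4 were called lower (Polr1c, Tcof1, Fbl and Ncl) and Rrn3 higher. Those 4 are 10% of the members, no more than the 11.2% of all genes called lower in that fit. Single lymphomas lowered the count too, to 7 without 3769, 8 without 3594, 5560 or 7050 and 9 without 403. Over all genes 11.4% were called lower without 3769, 12% without 3594, 5560 or 7050 and 12.2% without 403. No other pair was left out of this fit, and whether the drop is particular to 403 and 5560 was not tested.

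**Figure D1:**
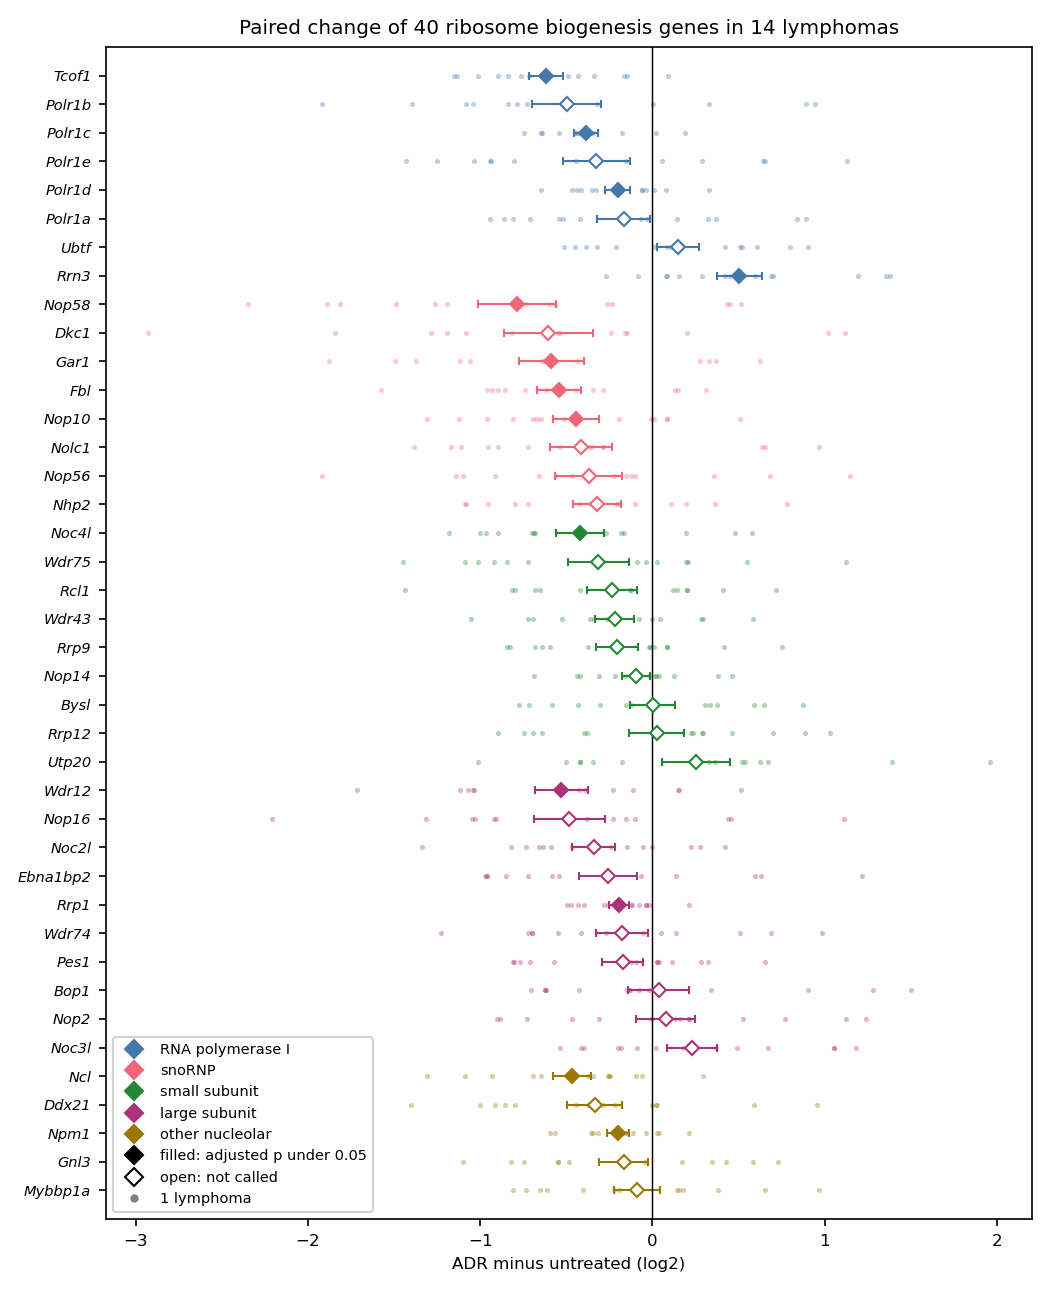
Mean ADR minus untreated change (log2, x axis) of each of the 40 genes, grouped by role, with bars for ± 1 SE over 14 lymphomas and a small dot for each lymphoma. Filled diamonds mark the 13 called genes, of which 12 lie left of 0 and Rrn3 lies right of it.

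Among the 8 genes of RNA polymerase I, Tcof1, Polr1c and Polr1d fell, Rrn3 rose and the other 4 were not called. Tcof1, which encodes treacle, a nucleolar protein needed for ribosomal DNA transcription, ranged from 8.37 to 8.98 untreated (median 8.68) and from 7.35 to 8.57 under ADR (median 8.15). The groups overlapped between 8.37 and 8.57, and only lymphoma 2949 had a higher ADR value. The mean change was -0.62 ± 0.099 (adjusted p = 2.2e-04, lower in 13 of 14), a 1.53-fold fall and the smallest adjusted p of the 40.

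Polr1c and Polr1d encode subunits that RNA polymerase I shares with RNA polymerase III. Polr1c ranged from 9.21 to 10.4 untreated (median 9.62) and from 8.71 to 9.90 under ADR (median 9.35). The groups overlapped over much of their range, but within lymphomas the ADR value was lower in 12 of 14, with a mean change of -0.39 ± 0.070 (adjusted p = 6.1e-04). Its other probe set changed by -0.25 (adjusted p = 0.077), not called, in the limma fit over all probe sets from which each value of an other probe set comes. Polr1d ranged from 11.28 to 12.16 untreated (median 11.63) and from 11.13 to 11.996 under ADR (median 11.56), and changed by -0.20 ± 0.071 (adjusted p = 0.045, lower in 11). The Polr1d call was lost without any of 3594, 3769, 403, 5560, 5766, 7050, 9583 or 9584, with changes from -0.24 to -0.17 and an adjusted p of up to 0.091 over the left-out lymphomas. Its probe set, like that of Polr1e, is of a class (_x_at) that can also read related transcripts. The other 3 Polr1d sets, at mean levels of 11.5, 11.1 and 10.3, changed by -0.28, -0.32 and -0.33 and were all called lower (adjusted p = 0.029, 0.0030 and 0.0062).

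Rrn3, the factor that makes the polymerase competent to start, was the only one of the 40 to rise. It ranged from 8.07 to 8.84 untreated (median 8.44) and from 8.32 to 9.90 under ADR (median 8.82). The groups overlapped in their lower parts, and the ADR value was higher in 12 of 14 lymphomas. The mean change was 0.50 ± 0.13 (adjusted p = 0.0081, 1.42-fold), with the highest rise in lymphoma 1570 (1.38) and values of -0.27 in 7050 and -0.08 in 5560. Within the 11 earlier lymphomas alone it was 0.35 with an adjusted p of 0.059, so the call there was lost. Rrn3 has the E-box letters at 2 places in the window printed above. The ADR array of lymphoma 1570 also had the widest gap between the 3′ and 5′ control probe sets of Gapdh (0.92 log2, next highest 0.38 in the ADR array of 6054), and without any single lymphoma, 1570 included, the Rrn3 change was 0.44 to 0.56 with adjusted p of at most 0.018.

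The remaining polymerase genes varied more between lymphomas. Polr1b, the second-largest subunit, changed by -0.50 ± 0.20 (adjusted p = 0.077), from -1.92 in 5560 to 0.94 in 2949. It was called without 1467 or without 2949 (adjusted p down to 0.022). Polr1e and Polr1a, which encode another subunit and the largest one, changed by -0.33 ± 0.19 and -0.17 ± 0.15, neither called. The other 2 Polr1a sets with a mean level above 6 were called lower, at -0.55 ± 0.16 (adjusted p = 0.017, mean level 7.07) and -0.37 ± 0.11 (adjusted p = 0.024, mean level 6.54), so the Polr1a call depends on the probe set. Ubtf, which binds ribosomal DNA and keeps it open, changed by 0.15 ± 0.12 (adjusted p = 0.42), and its other probe set, at a mean level of 7.01, changed by -0.39, the opposite sign.

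The snoRNP genes had the lowest median change of the 5 roles, -0.49, with 4 of 8 called lower and none higher. Nop58, a core protein of the box C/D snoRNPs that guide methylation, ranged from 9.72 to 11.03 untreated (median 10.6) and from 8.20 to 10.6 under ADR (median 9.87). It was lower under ADR in 11 of 14 lymphomas, and its change of -0.79 ± 0.23 (adjusted p = 0.015, 1.72-fold lower) was the lowest of the 40. Fbl, the methyltransferase of the same particles, ranged from 10.8 to 12.02 untreated (median 11.5) and from 9.92 to 11.4 under ADR (median 10.9). Its change was -0.54 ± 0.13 (adjusted p = 0.0046, lower in 11 of 14), and its other probe set changed by -0.60. The third core protein of these particles, Nop56, changed by -0.37 ± 0.19 (adjusted p = 0.18) and, of the 14 lymphomas left out in turn, passed the threshold without 2949 alone (adjusted p = 0.047).

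The box H/ACA snoRNPs, which guide pseudouridylation, have 4 core proteins, all on the list. Gar1 ranged from 9.56 to 10.9 untreated (median 10.2) and from 8.34 to 10.4 under ADR (median 9.70), overlapping groups with a lower ADR value in 10 of 14 lymphomas. Its change was -0.59 ± 0.19 (adjusted p = 0.028), and the call was lost without 3594, 3769, 403, 5560 or 7050 (adjusted p up to 0.059). Nop10 changed by -0.45 ± 0.13 (adjusted p = 0.019, lower in 10). Nhp2 changed by -0.32 ± 0.14 (adjusted p = 0.11).

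Dkc1, the pseudouridine synthase of the H/ACA particles, had the widest spread. It ranged from 9.22 to 11.2 untreated (median 10.4) and from 7.92 to 10.7 under ADR (median 10.1), and its change per lymphoma ran from -2.93 in 5560 to 1.12 in 2949. Its mean change was -0.60 ± 0.26 (adjusted p = 0.099), not called, while its set at a mean level of 9.30 was called at -0.76 ± 0.26 (adjusted p = 0.039) and its set at 9.10 was not (-0.51, adjusted p = 0.27). It was called without 1467 or without 2949 (adjusted p down to 0.036). Nolc1, a snoRNP chaperone, changed by -0.41 ± 0.18 (adjusted p = 0.098) and was called without 1467, 2949 or 5043 (adjusted p down to 0.023). Its set at a mean level of 8.81 was called at -0.61 (adjusted p = 0.035) and its set at 8.35 was not (-0.47). Nhp2 was called without 2949 (adjusted p = 0.024).

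Of the 9 small-subunit assembly genes Noc4l fell and none rose (median change -0.21). Noc4l ranged from 8.35 to 9.89 untreated (median 9.15) and from 8.26 to 9.22 under ADR (median 8.71). Its change was -0.42 ± 0.14 (adjusted p = 0.032, lower in 11 of 14), and the call was lost without 1570, 2581, 3594, 3769, 403, 5560 or 7050 (adjusted p up to 0.066). The other 3 Noc4l sets changed by -0.44, -0.53 and -0.46 and none was called (adjusted p = 0.052 to 0.12). The parts of the small-subunit processome Wdr75 and Wdr43 changed by -0.31 ± 0.18 and -0.22 ± 0.11, and Rcl1, needed for a cleavage of the precursor, by -0.23 ± 0.15. Rrp9, a protein of the U3 snoRNP, changed by -0.21 ± 0.12, and Nop14 by -0.095 ± 0.083. Bysl, Rrp12 and Utp20 had positive means of 0.0017 ± 0.13, 0.03 ± 0.16 and 0.25 ± 0.20, none of them called, and the Bysl and Rrp12 means were below 0 after array centring (-0.097 and -0.072). Utp20, a large scaffold protein, ran from -1.01 in 7050 to 1.96 in 1467, the highest single change of any member.

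Of the 10 large-subunit assembly genes Wdr12 and Rrp1 fell and none rose (median change -0.18). Wdr12 ranged from 8.86 to 10.1 untreated (median 9.64) and from 7.94 to 9.80 under ADR (median 9.13). Its change was -0.53 ± 0.15 (adjusted p = 0.015, lower in 11 of 14 lymphomas), and its set at a mean level of 6.31 changed by -0.26 ± 0.25 and was not called (adjusted p = 0.51). Wdr12 forms the PeBoW complex with Pes1 and Bop1, and those partners changed by -0.17 ± 0.12 and 0.04 ± 0.18 (-0.061 for Bop1 after array centring), neither called. Pes1 was lower in 7 lymphomas and higher in 7.

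Rrp1, a nucleolar protein of precursor processing, ranged from 10.2 to 10.8 untreated (median 10.5) and from 9.80 to 10.7 under ADR (median 10.3). Its change was -0.19 ± 0.060 (adjusted p = 0.023, lower in 13 of 14), from -0.49 in 3769 to 0.21 in 1467, and the call was lost without 3769 (adjusted p = 0.051). Its other set, at a mean level of 9.33, was called with a larger change of -0.54 ± 0.12 (adjusted p = 0.0023). Nop16 (-0.48 ± 0.21), Noc2l (-0.34 ± 0.12, adjusted p = 0.051), Ebna1bp2 (-0.26 ± 0.17) and Wdr74 (-0.18 ± 0.15) were below 0 and not called. Leaving out 2949 brought Nop16 (adjusted p = 0.023) past the threshold, and leaving out 1570, 2949 or 9583 brought Noc2l past it (adjusted p down to 0.020). Nop2, an RNA methyltransferase, and Noc3l had means of 0.08 ± 0.17 (-0.021 after array centring) and 0.23 ± 0.15, neither called.

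The 2 abundant nucleolar proteins of the last role both fell. Ncl (nucleolin, which binds the precursor RNA) ranged from 12.46 to 13.004 untreated (median 12.86) and from 11.68 to 12.85 under ADR (median 12.31). It was lower in 13 of 14 lymphomas, with a change of -0.46 ± 0.11 (adjusted p = 0.0045). Npm1 (nucleophosmin, a nucleolar chaperone) ranged from 12.8 to 13.4 untreated (median 13.2) and from 12.5 to 13.2 under ADR (median 13.03). Its change was -0.20 ± 0.064 (adjusted p = 0.028, lower in 11), and the call was lost without 2581, 3594, 3769, 5560 or 7050 (adjusted p up to 0.059). Ddx21, an RNA helicase, changed by -0.34 ± 0.16 (adjusted p = 0.13, called without 2949 at 0.028), Gnl3 (nucleostemin) by -0.17 ± 0.14 and Mybbp1a by -0.088 ± 0.13.

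Wider lists of the same pathway were counted in the same way. Beside them, 13.4% of all genes were called lower and 15.3% higher. Among genes with a mean level of 6 or above the shares were 24.6% and 23.5%. The lists were not tested against these shares. Of 107 other assembly and polymerase genes 33 fell and 1 rose (median change -0.23). Among 44 other small-subunit genes 17 fell and 1 rose, led by Lyar (-0.89), Emg1 (-0.58) and Imp3 (-0.53). Among 52 other large-subunit and RNase P or MRP genes 12 fell and none rose, led by Pop5 (-0.74), Rpf1 (-0.55) and Rpp40 (-0.55). Of 11 other polymerase I genes 4 fell (median -0.08), led by Taf1b (-0.58), Polr2h (-0.45) and Znrd1 (-0.40). Of 44 ribosomal protein genes 8 fell and none rose (median -0.06), led by Rpl14 (-0.80), Rpsa (-0.20) and Rpl11 (-0.17). Of 17 other Myc target genes 7 fell and Ccnd2 rose (1.00), with Shmt2 (-0.90) and Ppat (-0.79) leading the fall.

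The mean change of a member hid opposite values in different lymphomas. All 40 members were lower in 5560 and in 7050, where 51.7% and 51.2% of all genes were lower. In 3594 there were 39 (54.2% of all genes), and in 2581, 3769 and 403 there were 38 (46.7%, 52.0% and 59.1% of all genes). The median change of all genes in 403 was -0.095. By contrast only 2 of 40 were lower in 2949, 6 in 1467 and 7 in 5043, where 46.1%, 48.3% and 49.5% of all genes were lower. The median member change per lymphoma ran from -0.96 in 5560 to 0.72 in 2949.

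Each lymphoma's member median is read here beside its Col1a2 change. In 1467, 2949 and 5043 the member medians were 0.49, 0.72 and 0.34 and the Col1a2 changes 0.38, 0.75 and 0.92. In 1570 and 9584, with the next lowest Col1a2 changes of 1.08 and 1.35, the member medians were -0.14 and -0.26. In 403 and 5560, with Col1a2 changes of 6.31 and 6.04, the member medians were -0.69 and -0.96. In 3594, 2581 and 7050, with 4.38, 4.22 and 4.07, they were -0.76, -0.47 and -0.82, and in 3769, with 3.57, it was -0.68. In 6054 and 9583, with 2.25 and 2.27, both medians were -0.05. Lymphoma 2949 also had the lowest untreated member median, 8.997, against 9.38 to 10.1 in the other 13, and lay at 9.65 under ADR. The mean change of its proliferation genes was the lowest of the 14, -2.57. Lymphoma 5766 combined a Col1a2 change of 3.69 with a member median of -0.10. The Myc change was lowest in 5560 (-2.40) and highest in 2949 (0.31), as the member median was. It was -0.66 in 5043, with a member median of 0.34, and -0.27 in 2581, with a member median of -0.47.

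**Figure D2:**
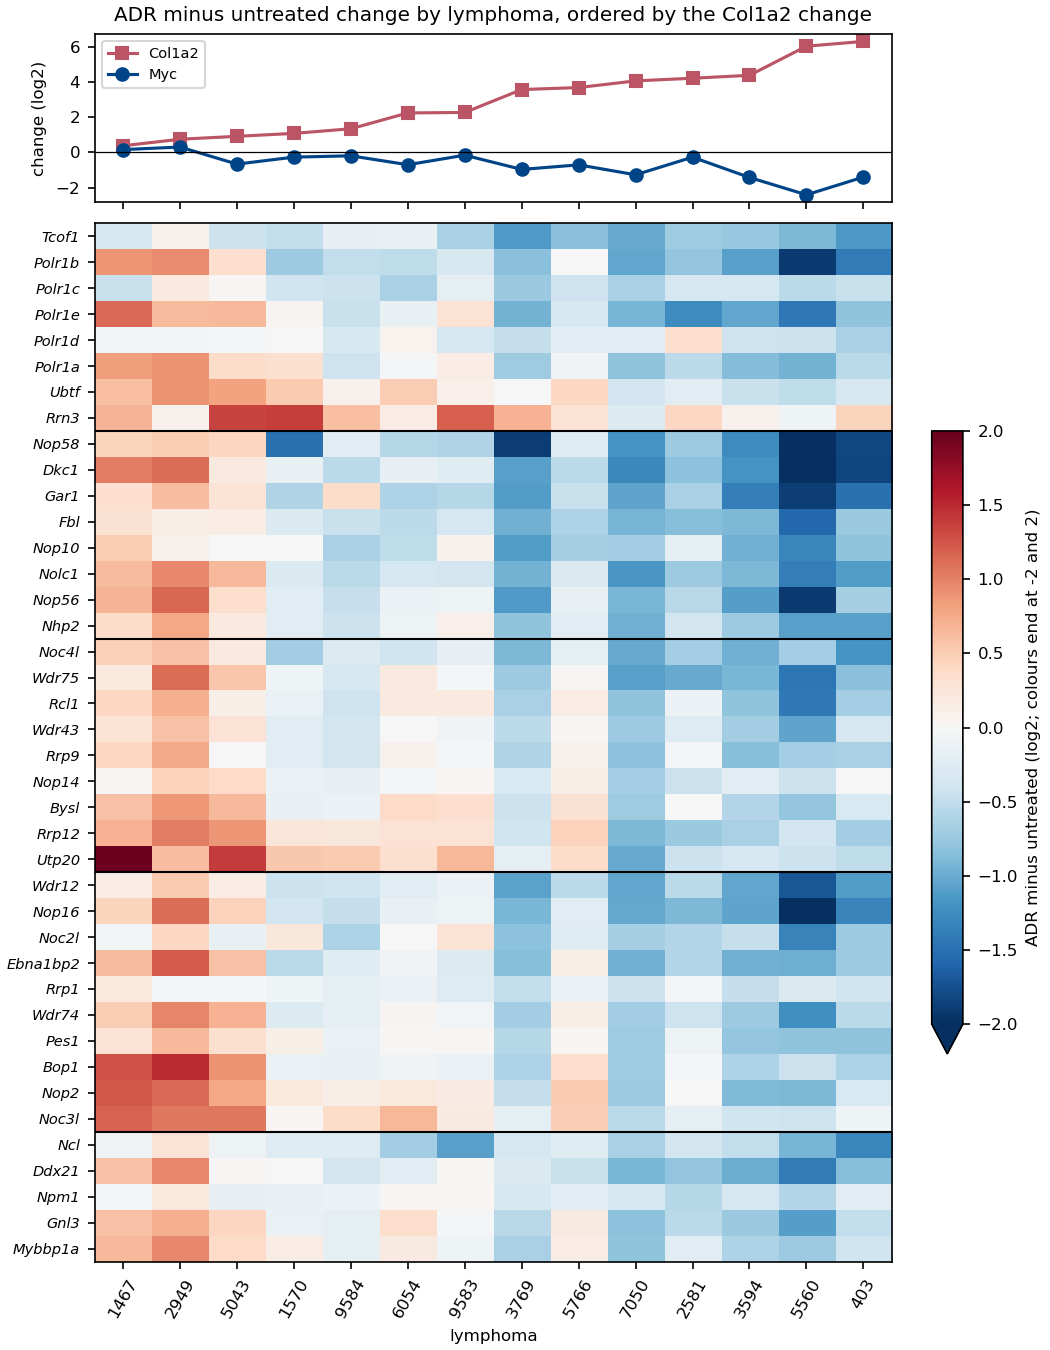
ADR minus untreated change (log2, colour scale ending at -2 and 2) of the 40 genes (rows, in 5 roles) in 14 lymphomas (columns, ordered by the Col1a2 change), with the Myc and Col1a2 changes (log2) above. The 3 leftmost lymphomas, with Col1a2 changes of 0.38 to 0.92, are mostly red, and 7050, 3594, 5560 and 403 are mostly blue.

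The members moved together across the lymphomas. Over the 780 pairs of members the median correlation of their 14 changes was r = 0.84 (range 0.11 to 0.98), and 91.0% of pairs were above 0.5. This is a description, since the 40 values of a lymphoma share the same 2 arrays. Pairs of other genes were not counted, so whether these values are particular to the members was not tested. The median r between pairs within a role was 0.88 for the snoRNP and large-subunit genes, 0.86 for the small-subunit genes, 0.80 for the other nucleolar genes and 0.54 for the polymerase I genes. The members least like the others were Rrn3 (median r with the other 39 of 0.38), Polr1d (0.48), Ncl (0.60) and Polr1c (0.60). The most alike was Nolc1 (0.92).

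The changes followed the Myc change in 31 of the 40 genes, against 5% of all genes, and no member had a called negative slope in limma (4.8% of all genes), nor one at an unadjusted p below 0.05. All 40 slopes were positive, with a median of 0.60 log2 per log2 of Myc, against a median of 0.02 over all genes. The 9 not called were Tcof1, Polr1c, Polr1d, Rrn3, Nop14, Rrp12, Rrp1, Ncl and Npm1, so 6 of the 12 genes that fell had a called slope. By role the called slopes were 4 of 8 for polymerase I, 8 of 8 for the snoRNPs, 7 of 9 for the small subunit, 9 of 10 for the large subunit and 3 of 5 for the other nucleolar genes. In the fit of genes with a mean level of 6 or above, 33 members (82.5%) had a called positive slope, against 10.6% of those genes.

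Dkc1 had the steepest slope, 1.32 ± 0.16 (adjusted p = 0.0012), with r = 0.91 (permutation p = 2e-05) and rho = 0.85 (p = 2.8e-04). It kept r = 0.80 without 5560 and 2949, and 0.95 within the 11 earlier lymphomas. Wdr12 had r = 0.90 (p = 5e-05) and rho = 0.86 (p = 1.6e-04, slope 0.75 ± 0.11, adjusted p = 0.0024), with 0.80 without those 2 and 0.94 within the 11. Ncl had r = 0.60 (p = 0.023) and rho = 0.58 (p = 0.034) with an adjusted p of 0.098, and 0.42 without those 2 lymphomas. Rrn3 had the lowest r of the 40, 0.46 (p = 0.10), with rho = 0.49 (p = 0.081).

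Against Myc, r ran from 0.46 to 0.91 over the 40 members (median 0.78). The median r was 0.66 without 5560 and 2949 and 0.84 within the 11 earlier lymphomas. The calls leaned on single lymphomas, with 18 members called without 5560 and none without 403 and 5560 together, when the median r was 0.71. All-gene calls fell in the same fits, from 909 positive slopes to 331 without 5560, 530 without 1467 and 9 without 403 and 5560. In all, 80 relations were computed (40 genes against Myc and Col1a2), and the adjusted p is that of the fit over all genes.

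The changes followed the Col1a2 change, in the opposite direction, in 35 of the 40 genes, against 8.28% of all genes with a called negative slope. No member had a positive slope, called or not, against 8.58% of all genes with a called one. The 5 not called were Polr1c, Polr1d, Rrn3, Nop14 and Rrp1. In the fit of genes with a mean level of 6 or above, 35 members were called, against 16.9% of those genes. Dkc1 again had the steepest slope, -0.50 ± 0.061 per log2 of Col1a2 (adjusted p = 7.8e-05), with r = -0.91 and rho = -0.93 (both p = 1e-05, the smallest that 100000 permutations can give), -0.87 without 403 and 5560 and -0.93 within the 11 earlier lymphomas.

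For Fbl the r with Col1a2 was -0.87 (p = 3e-05), rho -0.85 (p = 2.7e-04, adjusted p of the slope 7.8e-04), with -0.92 without 403 and 5560 and -0.87 within the 11. Tcof1 was not called against Myc, at an adjusted p of 0.052 for the slope with r = 0.68 (permutation p = 0.0066). Against Col1a2 it had r = -0.80 (p = 7e-04) and rho = -0.80 (p = 9.7e-04, adjusted p = 0.0056). It kept -0.77 without 403 and 5560 and -0.80 within the 11. Over the 40, r ran from -0.91 to -0.46 (median -0.80). The median was -0.78 without 403 and 5560, where 28 members (70%) and 4.62% of all genes were called, and -0.81 within the 11.

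**Figure D3:**
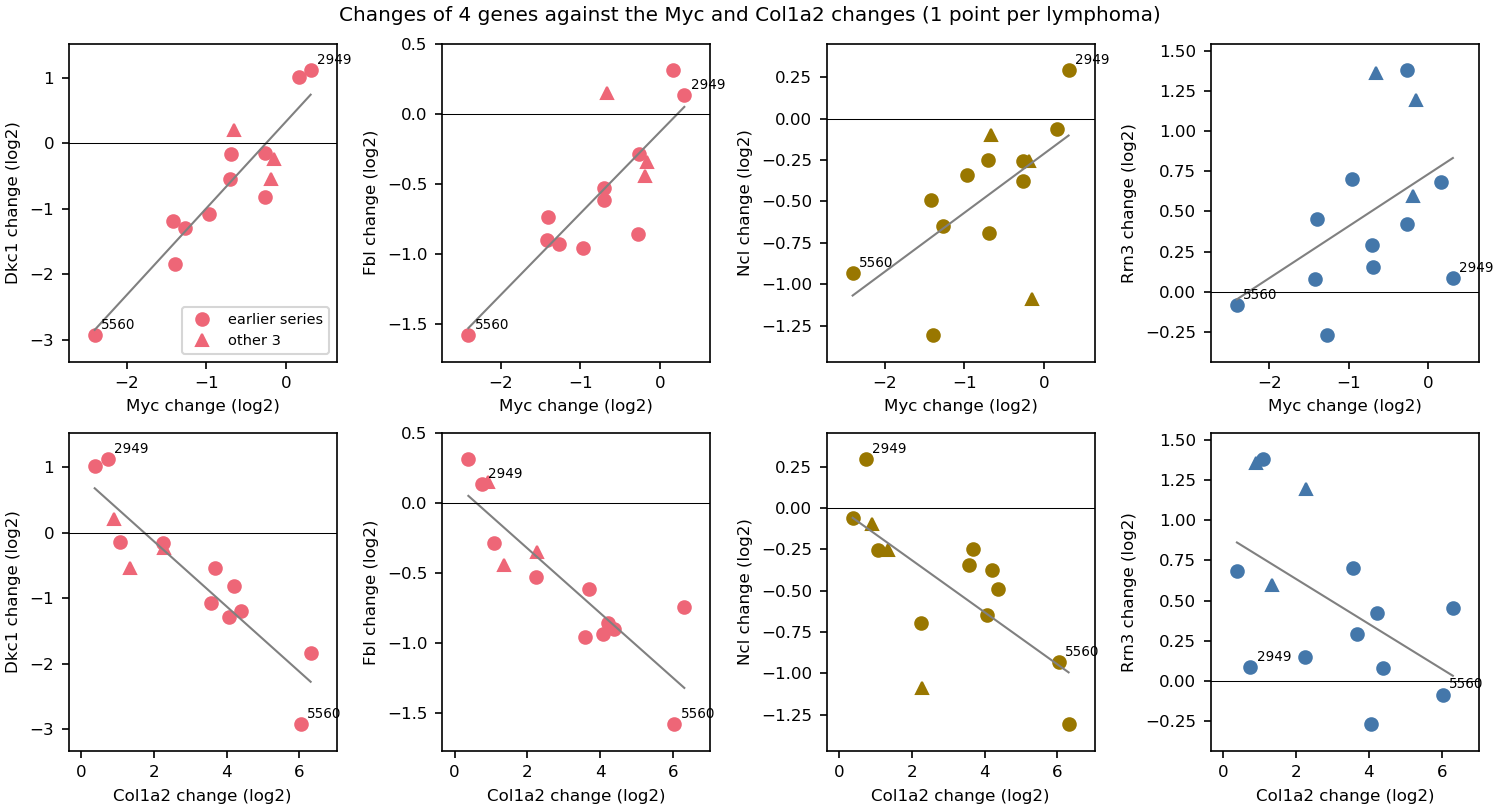
Change (ADR minus untreated, log2, y axes) of Dkc1, Fbl, Ncl and Rrn3 against the Myc change (log2, upper row) and the Col1a2 change (log2, lower row), with a least-squares line. Circles are the 11 earlier lymphomas and triangles the other 3, and 5560 lies at the low end for Dkc1 and Fbl, at -2.93 and -1.58.

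With Myc and Col1a2 in the same fit, no member was called for either. Over all genes 0.0055% had a called positive Myc slope, 0.099% a called negative Col1a2 slope and 0.764% a called positive one. At an unadjusted p below 0.05, limma gave 6 members a positive Myc slope and 14 a negative Col1a2 slope, with no share of all genes counted at that threshold. Dkc1 had joint slopes of 0.73 ± 0.23 on Myc (adjusted p = 0.88) and -0.27 ± 0.087 on Col1a2 (adjusted p = 0.17). All 40 joint Col1a2 slopes were negative and 38 of 40 joint Myc slopes were positive. Signs were not counted over all genes, and the 40 genes moved together, so these are not 40 separate signs. Because the 2 changes were correlated at -0.83, their parts in the member changes cannot be told apart with 14 lymphomas.

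The fit on Col1a2 also gives the change fitted at a Col1a2 change of 0, a point just below the lowest observed value of 0.38. There 13 of the 40 genes were called higher, against 5.61% of all genes. In the fit of genes with a mean level of 6 or above it was 18 (45%), against 13.2% of those genes. None of the 40 was called lower, against 4.58% of all genes and with none at an unadjusted p below 0.05 in limma. The median fitted value of the 40 was 0.51, against 0.02 for all genes, and 37 of 40 were positive. The share of all genes with a positive value was not counted. Among the 13 were Ubtf (0.77 ± 0.13, adjusted p = 0.0031), Polr1a (0.61), Polr1e (0.70) and Rrn3 (0.92) of polymerase I. Dkc1 (0.87 ± 0.21, adjusted p = 0.018) was the only snoRNP gene, and Mybbp1a (0.55) the only other nucleolar one.

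Of the small-subunit genes Utp20 (1.25 ± 0.22, adjusted p = 0.0031), Rrp12 (0.83) and Bysl (0.59) were called higher at that point. Of the large-subunit genes Nop2 (0.91), Bop1 (0.82), Pes1 (0.45) and Noc3l (0.92) were. Of the 12 genes that fell on average 9 had a positive fitted value at that point and none was called higher. Polr1c (-0.21 ± 0.12, adjusted p = 0.34), Tcof1 (-0.15 ± 0.12, adjusted p = 0.54) and Polr1d (-0.0017) were the 3 below 0.

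Single lymphomas moved the count of 13. It was 5 without 1467 (12.5% against 2.93% of all genes) and 20 without 9584 (50% against 5.85%). Without 2949, 5043, 5560 or 9583 it was 6, 7, 8 and 8, against 4.86%, 3.55%, 4.22% and 4.88% of all genes. Within the 11 earlier lymphomas the count was 7 (17.5%), against 3.05% of all genes. With the most variable probe set of each gene it was 7 (17.5% against 4.37%). With the mean of its probe sets it was 8 (20% against 4.39%). The median fitted value at the same point was 1.37 for the macrophage list and -1.16 for the proliferation list, and their parts in the member values were not tested.

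**Figure D4:**
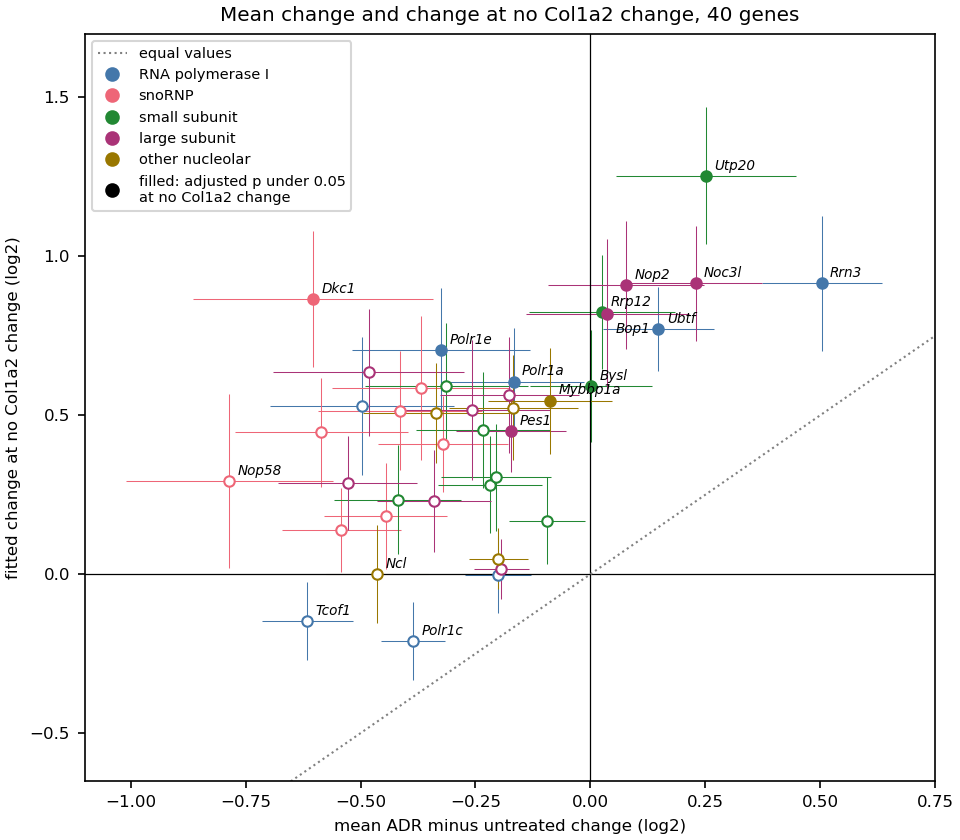
Fitted change at no Col1a2 change (log2, y axis) against the mean ADR minus untreated change (log2, x axis) for the 40 genes, with bars for ± 1 SE and colours for the 5 roles. All 40 points lie above the dotted line of equal values, because all 40 Col1a2 slopes were negative and the mean Col1a2 change positive. The 13 filled points were called higher on the y axis, and Tcof1 and Polr1c lie at -0.15 and -0.21.

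The E-box letters in the windows printed above divided the members as follows. The 6 genes with the motif (Nop2, Utp20, Pes1, Mybbp1a, Rrn3 and Wdr43) had a median change of -0.0053 and none was called lower. The 29 genes with a window and no motif had a median of -0.33, with 9 called lower. The Myc slope was called in 5 of the 6 and in 24 of the 29, with median slopes of 0.56 and 0.66. These are counts over few genes with no test.

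In the untreated cultures the level of the members was set against the level of Myc over the 14 lymphomas. The slope was positive for 39 of 40 genes, from -0.31 for Rrn3 to 0.73 for Nop16, but none was called in limma, against 0.011% of all genes called in the positive direction. At an unadjusted p below 0.05 there were 15 positive members and 1 negative, with no share of all genes counted at that threshold. The signs of the slopes were not counted over all genes either. The 3 new lymphomas did not differ from the 11 earlier ones in the change of any member at the threshold (smallest adjusted p = 0.86, 1 member higher at an unadjusted p below 0.05). Over all genes 0.0055% were called lower in that comparison and none higher.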

How the data were processed

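Total RNA of 28 cultures (14 lymphomas, untreated and ADR) was hybridised to 1-colour Affymetrix arrays. The authors deposited log2 signals per probe set, made by RMA in Partek 6.5 per the submitters' processing notes. RMA corrects background, normalizes between arrays and summarizes probes, and its options and the genome build were not given in the sources used here. Array medians ran from 4.71 to 4.80. Arrays have no read depth, and their number limits the precision. The 3 new and 11 earlier lymphomas were the only batch the labels gave.

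Of 45101 probe sets, 34945 had 1 gene symbol in the platform annotation (2016), 932 had several, 9160 had none and 64 were controls. Of these 34945, 34741 matched RefSeq by Entrez ID, and the set with the highest mean over all arrays was kept for each of 18193 genes, 9010 of which had more than 1 set. Of the 40 members 28 had more than 1 set and 4 were read by sets of the _s_at class, which can read more than 1 gene of a family.

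limma 3.58.1 (R 4.3.3) fitted ADR minus untreated with each lymphoma as a block, the 14 paired changes against the Myc change, the Col1a2 change or both, untreated levels against untreated Myc, and the new against the earlier lymphomas. Benjamini-Hochberg adjustment ran across the whole table of genes. The block comes from the lymphoma identifiers in the labels. Deviations from the group means correlated between the 2 arrays of a lymphoma at 0.27 to 0.61 (median 0.48), above 0.1 in 14 of 14, against a median of -0.08 between lymphomas. The partner was the best match from both sides in 10 of the 14 pairs. In 1467, 2949, 5766 and 6054 it was so from 1 side only. Correlations have permutation p-values (100000 permutations, two-sided).

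On simulated data with 200 changed genes of 18193, the paired fit recovered 67.2%, 98.5% and 97% of changes of 0.5, 1 and 2, with 12 false among 187 calls. The slope fit on Myc recovered 52% and 86% of slopes of 0.5 and 1, with 6 false among 144 calls. The simulated noise was normal and independent between genes. In the real data the members moved together and 2435 genes were called lower and 2790 higher, so these rates need not carry over.

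All 40 members are named. Of each other list up to 3 called genes with the largest changes are named, and in each role the full values are given for up to 3 called genes with the largest changes and for each that rose. Other values are shown for members that differ. The members and lists were chosen with earlier results of these data known. Alternatives covered the block, the probe set, centring, quantile normalization, a filter at log2 6, the earlier lymphomas alone, the fibroblast list mean in place of Col1a2, and each lymphoma left out. Sequences are RefSeq's. No promoter window was used for Tcof1, Fbl, Rrp12, Bop1 and Npm1.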

Additional observations from a re-analysis of the deposited data

How the results depend on the processing

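Without the lymphoma block (no replicate block), 9 members were lower and 1 higher, against 12 and 1 with it, and over all genes 1723 were lower and 1933 higher, against 2435 and 2790. A random block gave 15 and 1, against 13.2% of all genes lower and 15.1% higher. Centring each array moved the median change of all genes from -0.0011 to -0.10 and that of the members from -0.25 to -0.34, with 4207 genes lower and 2007 higher and 16 members lower. Quantile normalization gave medians of -0.04 and -0.26.

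Members lower were 4 (10%) without lymphomas 403 and 5560, where 2031 of all genes (11.2%) were lower, and 7 to 20 with 1 lymphoma left out, against 2082 to 2572 of all genes. Members higher were 2 with the most variable probe set and 0 in the 11 earlier lymphomas, against 14.5% and 13.9% of all genes. Members with a called Myc slope were 0 without 403 and 5560, and 18 to 34 with 1 lymphoma left out. Genes with a called positive Myc slope were 1599 after centring and 9 without 403 and 5560, and 331 to 1266 with 1 left out. Members higher at no Col1a2 change were 7 with the most variable probe set, where 4.37% of all genes were higher. They were 8 with the mean of the sets (4.39%) and 7 in the 11 earlier lymphomas (3.05%). With 1 left out they were 5 to 20, against 2.93% to 5.85% of all genes.

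No slope on Myc or Col1a2 changed sign in any alternative. Changes that crossed 0, none called except Pes1 at 0.76 (adjusted p = 0.0083), were as follows. With the most variable set they were -0.39 for Ubtf and 0.76 for Pes1. With the mean of the sets they were -0.12 for Ubtf, 0.30 for Pes1 and -0.0084 for Bop1. After centring they were -0.072 for Rrp12, -0.097 for Bysl, -0.021 for Nop2 and -0.061 for Bop1. Quantile normalization gave -0.039 for Rrp12. The 11 earlier lymphomas gave -0.094 for Rrp12, -0.076 for Bysl and -0.0099 for Bop1. With 1 lymphoma left out the ranges were -0.051 to 0.097 for Rrp12, -0.065 to 0.061 for Bysl, -0.012 to 0.15 for Nop2 and -0.075 to 0.094 for Bop1. The cause was not tested.

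The uncalled values at no Col1a2 change that crossed 0 were these. Polr1d was 0.086 in the 11 earlier lymphomas. Rrp1 was -0.34 with the most variable set, -0.18 with the mean of the sets and -0.017 after quantile normalization. Ncl was -0.0062 after centring, -0.043 after quantile normalization, -0.087 without 403 and 5560 and -0.042 with the fibroblast list mean. Npm1 was -0.22 with the most variable set and -0.12 with the mean. With 1 lymphoma left out the ranges were -0.042 to 0.043 for Polr1d, -0.047 to 0.037 for Rrp1, -0.10 to 0.089 for Ncl and -0.0067 to 0.099 for Npm1. The cause was not tested. The planned repeat with another Myc probe set was not run, since only 1 set was named for Myc alone. The number of arrays limits small changes, and signals near background flatten them.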

Other observations

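The nucleolar genes with several bright probe sets mostly gave the same sign. Of 23 members with more than 1 set at a mean level of 6 or above, Ubtf alone had sets of opposite sign (0.15 and -0.39). Ncl, the RNA-binding protein nucleolin, had sets at mean levels of 12.5, 11.5, 9.64 and 8.36, which changed by -0.46, -0.78, -0.43 and -0.57. The Npm1 sets at 13.05 and 12.94 changed by -0.20 and -0.37. Of the other sets at 6 or above, those of 4 called members (Ncl, Noc4l, Polr1c and Wdr12) included an uncalled set, and those of 3 uncalled members (Dkc1, Nolc1 and Polr1a) included a called one. The dimmer set of Pes1, at a mean level of 5.33, changed by 0.76 against -0.17 for the brightest.

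The other lists were set against Myc and Col1a2 in the same way. The 14 proliferation genes (Aurkb, Ccna2 and Mki67 lowest at -2.35, -2.23 and -2.19) had a median r of -0.16 with the Myc change and -0.10 with the Col1a2 change, and none had a called slope on either. The 44 ribosomal protein genes had median r of 0.47 with Myc and -0.35 with Col1a2, with 1 called slope on Col1a2. The 107 other biogenesis genes had 0.67 and -0.75. Of them 53 had a called positive Myc slope and 79 a called negative Col1a2 slope, against 5% and 8.28% of all genes. In the fit of genes with a mean level of 6 or above those shares were 10.6% and 16.9%. The differences between these lists were not tested.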
